A study of Homo sapiens and Mus musculus with 18 samples.

Results

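The 10 genes described here, TBXT, EOMES, MIXL1, MESP1, TBX6, MSGN1, CDX1, CDX2, CDX4 and NKX1-2, encode transcription factors of the primitive streak and of the axial progenitors that leave it. They were chosen by name, with the mouse genes taken in mouse spelling (TBXT is T), and were found as 10 of 44910 genes in the human count table and 10 of 29720 in the mouse table. RNA was sequenced from 18 libraries, 10 human and 8 mouse, as 2 replicates of each of 9 groups. The human groups were naive H9 embryonic stem cells (ESCs), chemically reset and kept in a medium that holds the MEK inhibitor PD0325901, the tankyrase inhibitor XAV939 (a WNT pathway inhibitor), Gö6983 and LIF; H9 in the primed state; RUES2-GLR in the primed state; and gastruloids made from RUES2-GLR with retinoic acid (RA-gastruloids), taken at 24 h (early) and at 120 h (late). For these gastruloids the cells were treated with the WNT pathway activator CHIR99021 before aggregation, with retinoic acid (RA) in the last day of that treatment, were aggregated with CHIR99021, and received RA and Matrigel later on. RUES2-GLR is a triple reporter line in which TBXT, SOX2 and SOX17 carry fluorescent tags, so its TBXT counts come from a gene with a tagged allele. The mouse groups all came from E14Tg2a: naive ESCs kept in 2i and LIF, which includes CHIR99021; epiblast-like cells (EpiLCs), made with Activin A and bFGF; and early (day 3) and late (day 6) gastruloids, aggregated from the naive ESCs and given a CHIR99021 pulse before day 3, with no added RA. Each species is thus represented by 1 or 2 lines, and line, protocol, hours in culture and species cannot be told apart between the human and mouse series.

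During gastrulation, epiblast cells enter the primitive streak under WNT, NODAL, BMP and FGF signals and leave it as mesoderm or endoderm. Brachyury (TBXT or T) and EOMES are T-box factors of the streak, and MIXL1 and MESP1 mark nascent mesendoderm and mesoderm. At the tail end, neuromesodermal progenitors that express brachyury, SOX2, NKX1-2 and the caudal-type CDX factors feed the growing axis, and TBX6 and its target MSGN1 turn them into presomitic mesoderm. Gastruloids are aggregates of stem cells that pass through parts of this programme in a dish.

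The stretches in front of TBXT, TBX6 and MSGN1 are shown because TBXT, or T, was high in the early gastruloids of both species, and TBX6 and MSGN1 were high in human early RA-gastruloids while their mouse counterparts, Tbx6 and Msgn1, gave 9 counts or fewer in every mouse library. Each is the 250 bases before the start of the canonical GENCODE transcript, read 5′ to 3′ on the gene's strand, with capitals at matches to 3 short motifs searched on both strands: CTTTGNT (TCF/LEF type), TCACACC (T-box half-site) and TTTATNG (CDX type). The reverse complement of the last one holds the TATA-box letters TATAAA when N stands for A, so matches close to a start can be either.
TBXT (human, GRCh38 chr6:166167852-166168101, minus strand): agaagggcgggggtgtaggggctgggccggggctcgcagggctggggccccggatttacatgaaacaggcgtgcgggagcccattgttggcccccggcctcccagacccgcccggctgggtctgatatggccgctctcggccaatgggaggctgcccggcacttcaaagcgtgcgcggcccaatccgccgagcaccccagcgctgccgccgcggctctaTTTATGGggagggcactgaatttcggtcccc
TBX6 (human, GRCh38 chr16:30091925-30092174, minus strand): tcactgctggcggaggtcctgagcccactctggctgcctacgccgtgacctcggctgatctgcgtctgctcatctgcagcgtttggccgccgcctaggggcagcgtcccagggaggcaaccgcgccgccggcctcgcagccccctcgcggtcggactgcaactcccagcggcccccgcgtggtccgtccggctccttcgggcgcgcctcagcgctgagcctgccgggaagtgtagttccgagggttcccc
MSGN1 (human, GRCh38 chr2:17816210-17816459, plus strand): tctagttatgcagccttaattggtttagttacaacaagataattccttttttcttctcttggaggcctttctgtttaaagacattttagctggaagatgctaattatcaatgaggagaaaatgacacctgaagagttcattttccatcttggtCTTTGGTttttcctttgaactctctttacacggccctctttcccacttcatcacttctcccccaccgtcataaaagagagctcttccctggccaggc
Tbx6 (mouse, GRCm39 chr7:126380405-126380654, plus strand): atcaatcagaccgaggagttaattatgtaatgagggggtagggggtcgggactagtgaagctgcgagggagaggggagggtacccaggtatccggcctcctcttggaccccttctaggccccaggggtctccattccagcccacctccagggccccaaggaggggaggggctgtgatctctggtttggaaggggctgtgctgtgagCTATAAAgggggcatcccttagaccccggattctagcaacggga
Msgn1 (mouse, GRCm39 chr12:11258974-11259223, minus strand): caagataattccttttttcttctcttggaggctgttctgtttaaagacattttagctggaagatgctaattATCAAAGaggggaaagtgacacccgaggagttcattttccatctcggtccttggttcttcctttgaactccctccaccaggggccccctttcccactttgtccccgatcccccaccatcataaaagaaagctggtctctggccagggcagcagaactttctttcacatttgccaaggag
The capitals stand for a CDX-type match 31 to 25 bases before the TBXT start, a TCF/LEF-type match 97 to 91 bases before the MSGN1 start, a CDX-type match on the reverse strand 44 to 38 bases before the Tbx6 start and a TCF/LEF-type match on the reverse strand 179 to 173 bases before the Msgn1 start. None of the 3 motifs lay in the TBX6 stretch. The TCF/LEF-type pattern leaves the base N free, and the MSGN1 match (CTTTGGT) has G there. The letters CTTTGAA, which stand in both the MSGN1 and the Msgn1 stretch, fall outside the pattern and are not marked. The counts that follow hold for the searched letters alone. A TCF/LEF-type match was found in the windows of 4 of 10 human members (MIXL1, MESP1, MSGN1 and CDX1), against 10.6% of the 20046 human protein-coding genes, and in 5 of 10 mouse members (Eomes, Mixl1, Msgn1, Cdx1 and Cdx4), against 15.9% of 21770. CDX-type matches lay in 3 of 10 windows in each species (TBXT, CDX1 and CDX2, and T, Tbx6 and Cdx1), against 7.47% and 9.57% of all. The T-box half-site lay in front of MESP1 alone, against 2.59% of human and 3.23% of mouse windows. Along the strand shown, the longest run of identical bases between the 2 species was 42 bases for MSGN1 and 8 bases for TBX6. These are matches of letters and say nothing of binding.

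Library totals ran from 3681739 to 38771193 counts in human and from 6487157 to 20052505 in mouse, and the shallowest was RUES2-GLR replicate 2, in which 3 counts correspond to 0.954 CPM (counts scaled to a common library total). Levels below are CPM scaled by TMM, a between-library factor, or RPKM (the same per kilobase of exon) where genes are set against each other. A change was called at a Benjamini-Hochberg adjusted p below 0.05 with an absolute log2 fold change above 1 in edgeR's quasi-likelihood test over all 18300 human or 15003 mouse genes that passed the filter on low counts. All 10 human members passed, but TBXT, EOMES and MSGN1 passed through the early RA-gastruloid libraries alone, so these 3 had to be higher there. At the level used, about 0.737 CPM in at least 2 libraries, MESP1 also passed only with the early RA-gastruloids. Outside them, late replicate 2 alone reached it (0.814 CPM), so the direction of MESP1 was largely fixed as well. In mouse, 7 members passed, each also without the early gastruloids, and Mesp1, Tbx6 and Msgn1 did not. Where a group held 0 counts the fold is given as a bound against 3 counts in each of its libraries, and where it held 1 to 3 counts as the ratio of summed counts with its exact 95% interval, which covers counting error alone. The libraries are bulk samples, so fewer cells of a type and less RNA per cell cannot be told apart. The 2 replicates of a stage were biological replicates collected in the same batch, and with pairs of libraries the p-values rest on a spread shared across groups.

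**Figure D1:**
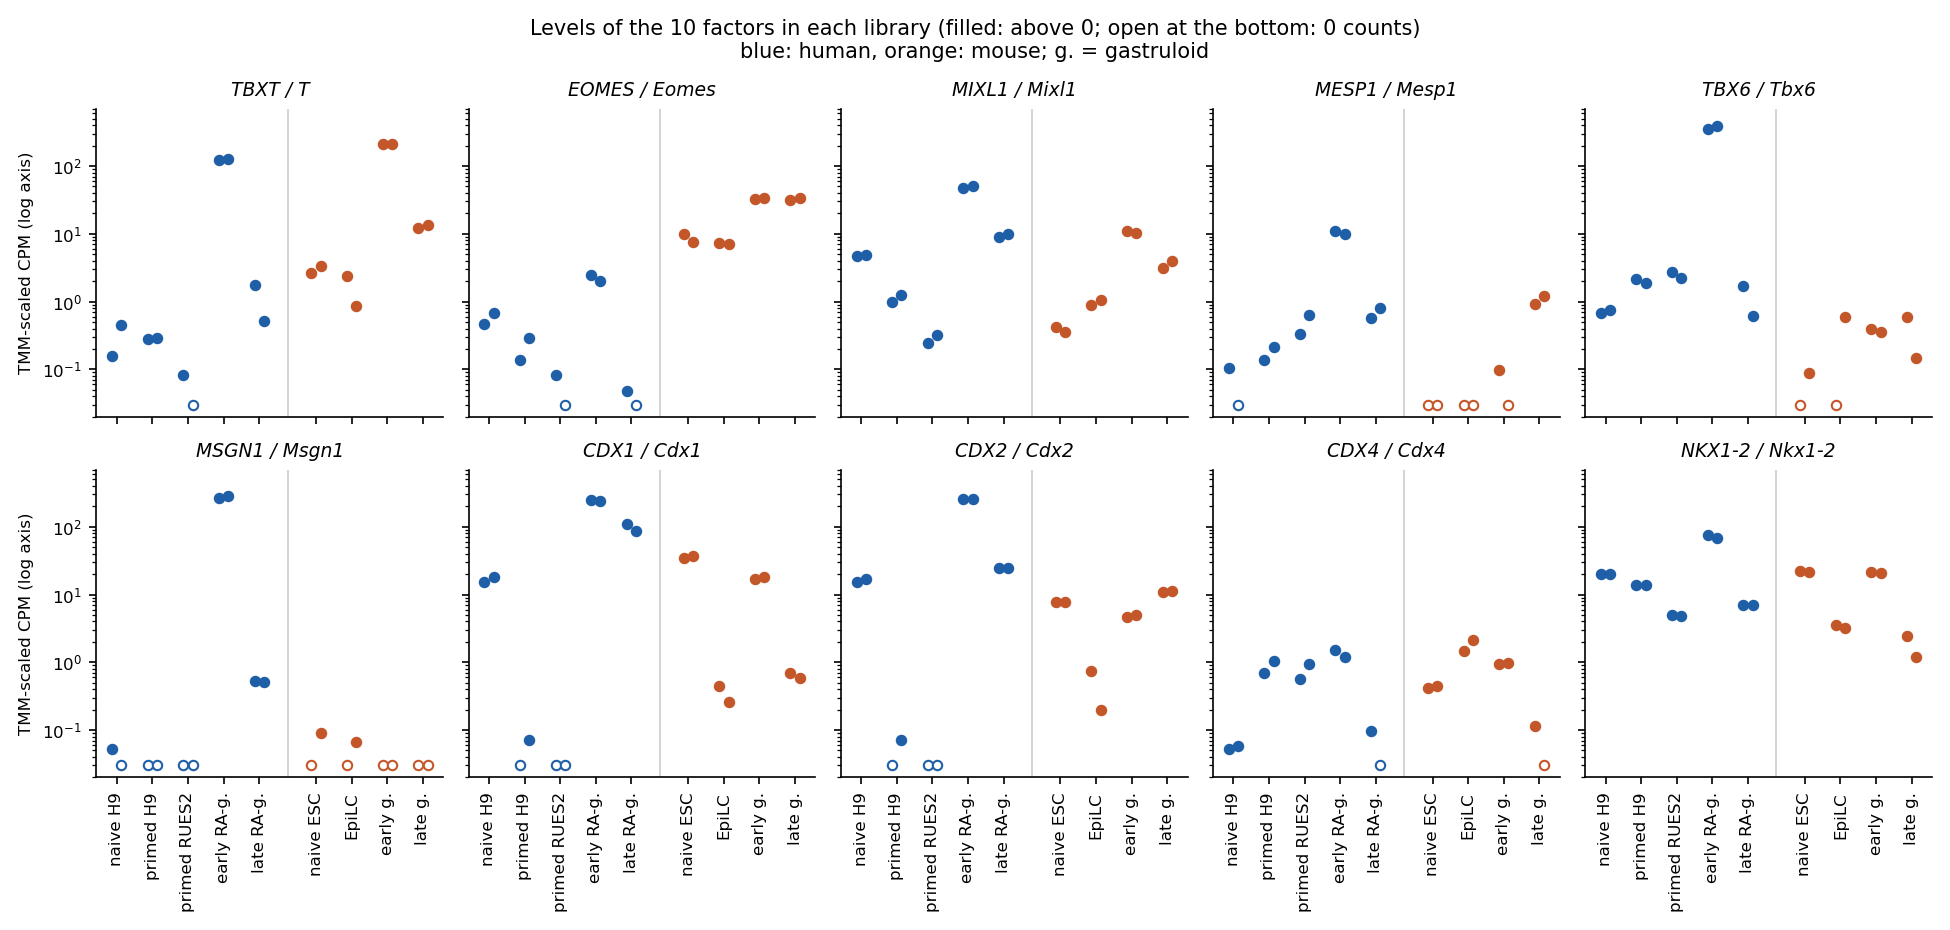
TMM-scaled CPM of each factor (log axis) in every library, human groups in blue and mouse groups in orange, with libraries at 0 counts drawn as open circles at the bottom. TBX6 and MSGN1 reach 384 and 281 CPM in human early RA-gastruloids and stay below 1 CPM in all 8 mouse libraries.

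Brachyury, the T-box factor of the streak and tail bud, was highest in the early gastruloids of both species. TBXT gave 124 and 128 CPM in the 2 early RA-gastruloid libraries, 0.0818 and 0 CPM in RUES2-GLR, 0.279 and 0.286 CPM in primed H9 and 0.156 and 0.458 CPM in naive H9, and it was back at 1.74 and 0.509 CPM in late RA-gastruloids. The early libraries stood far above all others, and the RUES2-GLR pair held a single TBXT count. The ratio of summed counts from RUES2-GLR to early was 1936 (95% interval 347 to 76517; adjusted p = 8.04e-21), and into late RA-gastruloids TBXT fell by 6.57 ± 0.22 (SE) on the log2 scale (112-fold, adjusted p = 1.38e-21). In mouse, T gave 213 and 212 CPM in early gastruloids, 2.36 and 0.854 CPM in EpiLCs, 2.65 and 3.31 CPM in naive ESCs and 12.0 and 13.7 CPM in late gastruloids. It rose by 7.31 ± 0.14 (log2) from EpiLCs to early gastruloids (132-fold, adjusted p = 4.56e-46) and fell by 4.06 ± 0.10 into the late ones (16.6-fold, adjusted p = 4.22e-41). The late mouse libraries kept more of it than the human ones did: the fall was 2.37 ± 0.29 log2 units steeper in human (interaction contrast, adjusted p = 1.32e-08). Of the 2603 exon bases of TBXT, 14.3% are shared with the antisense gene LNCDAT, and unstranded counting leaves out reads that fall in both.

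EOMES, which acts upstream of mesoderm and endoderm in the streak and is also a trophoblast gene, kept different courses in the 2 systems. In human it stayed low throughout: 2.49 and 2.02 CPM (26 and 20 counts) in early RA-gastruloids, and from 0 to 0.687 CPM in the other 8 libraries. The early pair lay above all others, with a ratio to RUES2-GLR of 34.7 (95% interval 5.93 to 1401; adjusted p = 1.26e-05). The ratio of early to late was 68.9 (95% interval 11.8 to 2778; adjusted p = 2.04e-07). In mouse, Eomes gave 9.90 and 7.62 CPM in naive ESCs, 7.38 and 6.96 CPM in EpiLCs, 32.3 and 33.4 CPM in early and 31.5 and 34.0 CPM in late gastruloids. It rose by 2.20 ± 0.13 (log2) from EpiLCs (4.58-fold, adjusted p = 2.8e-22) and then held its level, with overlapping early and late libraries and a difference of -0.0044 ± 0.10 (adjusted p = 0.971). The step from early to late differed between species (adjusted p = 1.16e-08). Other marker lists summed higher in the mouse late libraries as well. The 8 trophoblast and amnion markers summed to 233 ± 2.47 CPM (SD, n = 2) against 10.3 ± 0.0130 in early ones, but with Tfap2a below 1 CPM and Vtcn1 and Cga at 0. The 5 endoderm markers summed to 109 ± 0.972 against 3.18 ± 0.593, and the 4 cardiac markers to 161 ± 8.60 against 2.79 ± 0.0973. A sum over a list does not name a lineage, and the part of these genes in the Eomes level was not tested.

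MIXL1, a homeobox factor of nascent mesendoderm, rose in both. It gave 48.2 and 50.8 CPM in early RA-gastruloids, 0.245 and 0.318 CPM in RUES2-GLR, 0.977 and 1.24 CPM in primed H9, 4.64 and 4.87 CPM in naive H9 and 8.86 and 9.87 CPM in late RA-gastruloids. None of these pairs overlapped. The rise from RUES2-GLR was 7.53 ± 0.31 (log2; 176-fold, adjusted p = 3.26e-19) and the fall to late 2.42 ± 0.15 (5.28-fold, adjusted p = 1.15e-14), so that late RA-gastruloids remained above RUES2-GLR by 5.11 ± 0.39 (adjusted p = 7.64e-13). Mouse Mixl1 went from 0.886 and 1.05 CPM in EpiLCs to 10.9 and 10.3 CPM in early and 3.15 and 4.01 CPM in late gastruloids, a rise of 3.40 ± 0.27 (adjusted p = 1.23e-16) and a decrease of 1.59 on the log2 scale (SE 0.23, adjusted p = 9.22e-09). The rise was 4.02 ± 0.62 log2 units larger in human (adjusted p = 9.75e-07).

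MESP1, a bHLH factor that marks mesoderm leaving the streak, was highest in early RA-gastruloids in human and in late gastruloids in mouse, at low levels in both. Its 11.0 and 10.1 CPM in human early RA-gastruloids compare with 0.327 and 0.636 CPM in RUES2-GLR and 0.581 and 0.814 CPM in late RA-gastruloids. It rose by 4.72 ± 0.44 (log2; 21.9-fold, adjusted p = 8.37e-11) and fell by 3.98 ± 0.33 (adjusted p = 7.33e-12). Human MESP1 passed the filter only with the early RA-gastruloids, so both directions were largely fixed. Mouse Mesp1 held 0 counts in the 4 stem cell and EpiLC libraries, 2 and 0 counts in early gastruloids and 8 counts in each late library (0.932 and 1.19 CPM). The ratio of late to early was 16.5 (95% interval 3.89 to 148). The gene was thus higher in the later stage in mouse and in the earlier stage in human (adjusted p of the difference = 1.17e-08). Mouse Mesp1 did not pass the filter within mouse, and its side of this difference rests on 2 against 16 summed counts.

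TBX6 and MSGN1, the pair of presomitic mesoderm factors, were high in human early RA-gastruloids and at the limit of detection in mouse. TBX6 gave 356 and 384 CPM in early RA-gastruloids (3719 and 3810 counts) and no more than 2.78 CPM in any other human library. It rose by 7.12 ± 0.19 (log2; 148-fold, adjusted p = 1.35e-23) and fell by 8.12 ± 0.19 (321-fold, adjusted p = 3.12e-25), to 1.69 and 0.610 CPM. MSGN1 gave 270 and 281 CPM (2816 and 2791 counts) in early RA-gastruloids, 0 counts in the 4 primed libraries and 1 count in naive H9. It was at least 459-fold higher in early RA-gastruloids than in RUES2-GLR (adjusted p = 1.89e-23) and fell by 9.02 ± 0.20 (log2; 529-fold, adjusted p = 1.76e-24) to 0.532 and 0.509 CPM in late ones. Mouse Tbx6 held 8 and 4 counts in early gastruloids (0.394 and 0.351 CPM), 0 and 9 in EpiLCs, 0 and 1 in naive ESCs and 5 and 1 in late gastruloids. The early libraries overlapped with those of EpiLCs and late gastruloids and lay above naive ESCs, with a ratio of 6.95 (95% interval 1.03 to 297). Mouse Msgn1 held 0 counts in both early and both late libraries and 1 count in each of 2 stem cell and EpiLC libraries. A count of 0 allows up to 0.148 CPM in the deepest early library. No base of the Tbx6 or Msgn1 exons, 1804 and 613 bases long, is shared with another gene of the count table. The TBX6 step from primed to early differed between species (adjusted p = 1.08e-07), a call lost without EpiLC replicate 2, which held all 9 EpiLC counts (adjusted p = 0.908), and so did the step from early to late (adjusted p = 6.73e-07). For MSGN1 the first difference had an adjusted p of 0.000222, with both mouse groups at or below 1 count. MSGN1 entered this contrast through the human early RA-gastruloids alone, so the direction of the difference was fixed. The MSGN1 call was lost without EpiLC replicate 2, and no second difference could be read.

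The caudal factors CDX1 and CDX2, which pattern the posterior axis, rose from no counts in RUES2-GLR and were still present in late RA-gastruloids. CDX1 gave 248 and 243 CPM in early and 111 and 86.8 CPM in late RA-gastruloids, 0 in RUES2-GLR, 0 and 0.0714 CPM in primed H9 and 15.3 and 18.1 CPM in naive H9. CDX2 gave 253 and 261 CPM in early and 24.8 and 24.5 CPM in late RA-gastruloids, again 0 in RUES2-GLR, 0 and 0.0714 CPM in primed H9 and 15.4 and 17.2 CPM in naive H9. Early RA-gastruloids stood at least 410-fold (CDX1) and at least 428-fold (CDX2) above RUES2-GLR (adjusted p = 7.73e-23 and 9.05e-24). CDX2 then fell by 3.38 ± 0.13 (log2; 10.4-fold, adjusted p = 7.29e-20) and CDX1 by 1.31 ± 0.12 (2.49-fold, adjusted p = 1.96e-10). In mouse, Cdx1 gave 16.9 and 17.9 CPM in early gastruloids, 0.443 and 0.263 CPM in EpiLCs and 0.699 and 0.595 CPM in late gastruloids, and its highest level, 34.8 and 36.7 CPM, in naive ESCs. Cdx2 gave 7.80 and 7.70 CPM in naive ESCs, 0.738 and 0.197 CPM in EpiLCs, 4.58 and 5.0 CPM in early and 11.0 and 11.4 CPM in late gastruloids. From EpiLCs to early gastruloids Cdx1 rose by 5.71 ± 0.28 (49.3-fold, adjusted p = 8.48e-26) and Cdx2 by 3.66 ± 0.39 (10.3-fold, adjusted p = 5.28e-12). Between early and late gastruloids Cdx1 fell by 4.70 ± 0.27 (26.9-fold, adjusted p = 5.49e-23) while Cdx2 rose by 1.23 ± 0.20 (2.34-fold, adjusted p = 1.92e-07). CDX2 therefore moved in opposite directions in the 2 species, with a difference of -4.47 ± 0.22 log2 units (human minus mouse, adjusted p = 7.37e-19), and for CDX1 the difference ran the other way, 3.55 ± 0.34 (adjusted p = 4.13e-11).

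In length-scaled terms CDX1 made up 65.2% of the summed CDX1, CDX2 and CDX4 level in early RA-gastruloids (212 ± 0.564 RPKM, n = 2) and 88.8% in late ones (62.7 ± 9.69 RPKM). In mouse the share of Cdx1 went from 79.2% of 12.5 ± 0.566 RPKM in early to 6.91% of 5.35 ± 0.0697 RPKM in late gastruloids, where Cdx2 took 92.5%. CDX4, the X-linked member of the family, stayed below 3 CPM in every library of both species. It gave 1.53 and 1.21 CPM in early RA-gastruloids against 0.572 and 0.954 CPM in RUES2-GLR, a difference of 1.06 ± 0.58 (log2) that was not called (adjusted p = 0.127), and 0.0968 and 0 CPM in late ones, a called fall with a ratio of 21.0 (95% interval 5.29 to 182; adjusted p = 2.8e-05). Mouse Cdx4 gave 1.48 and 2.17 CPM in EpiLCs, 0.937 and 0.966 CPM in early and 0.117 and 0 CPM in late gastruloids. It passed the filter through EpiLCs alone, so a fall from them was fixed. The step from EpiLCs to early was called as a decrease of 1.01 on the log2 scale (SE 0.42, adjusted p = 0.03), but leaving out EpiLC replicate 2 gave -0.63 (adjusted p = 0.473), and the call was also lost without early replicate 1 (0.171) or 2 (0.0903) and in DESeq2 (0.39). The difference between species at this step was 1.97 ± 0.70 (adjusted p = 0.016), which was lost in DESeq2 (0.136) and without RUES2-GLR replicate 1 (0.26), human early replicate 1 (0.0612) or EpiLC replicate 2 (0.15).

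NKX1-2, a homeobox factor of the caudal epiblast and of neuromesodermal progenitors, was expressed in every library. It gave 75.1 and 69.2 CPM in early RA-gastruloids, 4.99 and 4.77 CPM in RUES2-GLR, 13.8 CPM in both primed H9 libraries, 19.8 and 19.9 CPM in naive H9 and 7.02 and 7.12 CPM in late RA-gastruloids. It rose by 3.87 ± 0.17 (log2; 14.8-fold, adjusted p = 2.01e-18) and fell by 3.35 ± 0.14 (10.2-fold, adjusted p = 8.95e-19). Mouse Nkx1-2 gave 21.9 and 21.4 CPM in naive ESCs, 3.54 and 3.15 CPM in EpiLCs, 21.4 and 20.5 CPM in early and 2.45 and 1.19 CPM in late gastruloids. It rose by 2.68 ± 0.17 from EpiLCs to early gastruloids (adjusted p = 1.08e-20) and fell by 3.46 ± 0.21 into late ones (adjusted p = 8.52e-22). Early gastruloids differed from naive ESCs, their starting cells, by -0.04 ± 0.12 (adjusted p = 0.787). The rise was 1.09 ± 0.27 log2 units larger in human (adjusted p = 0.000854), and the fall did not pass the test of a difference (0.26 ± 0.29, adjusted p = 0.473). The antisense gene ENSG00000271434 shares 37.7% of the human NKX1-2 exon bases and held at most 2 counts in a library.

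**Figure D2:**
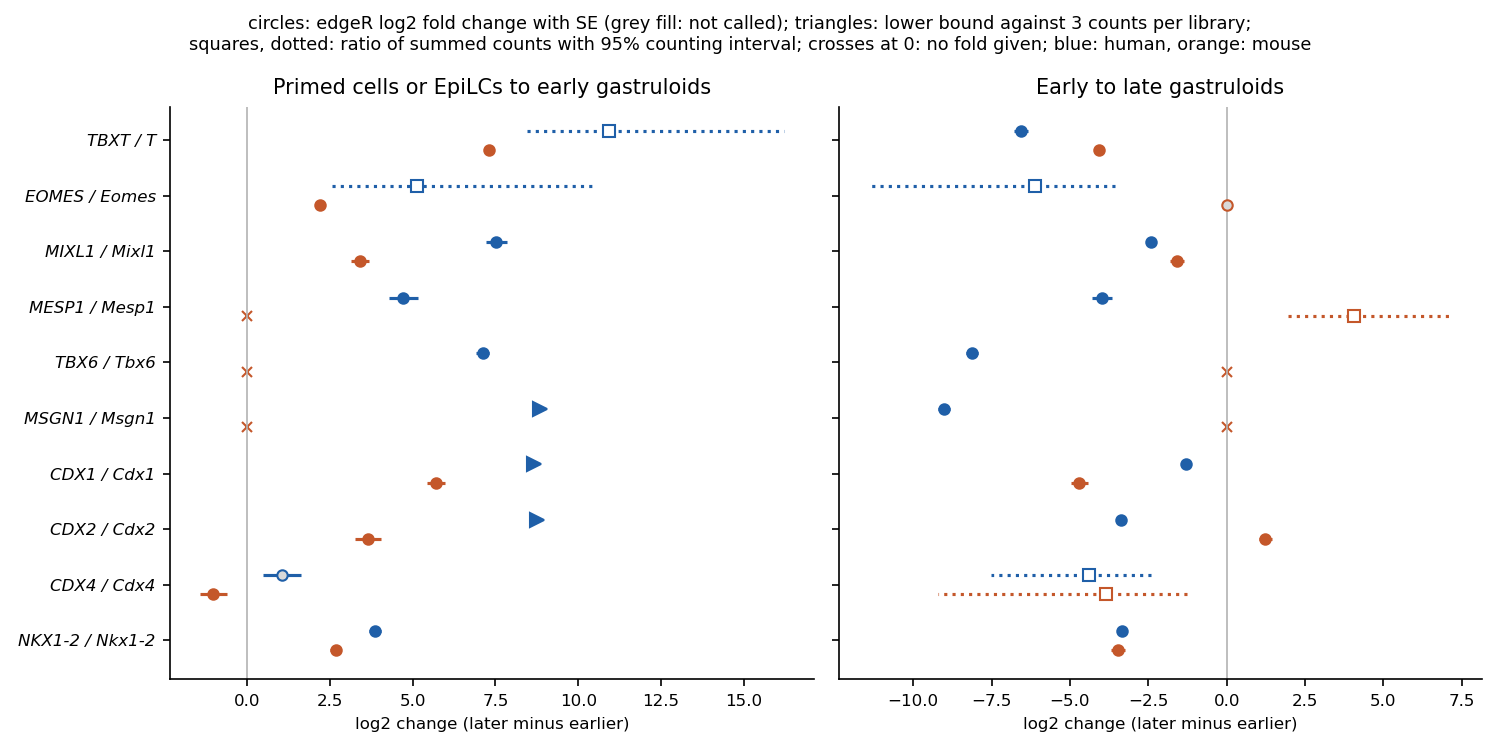
Log2 change of each factor from primed RUES2-GLR cells or EpiLCs to early gastruloids (left) and from early to late gastruloids (right), human in blue and mouse in orange. Circles with SE bars are edgeR estimates, triangles are lower bounds, squares with dotted 95% intervals are ratios of few counts, and crosses at 0 mark genes with no fold. CDX2 lies at -3.38 in human and at 1.23 in mouse in the right panel.

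Counted over the steps, 9 of 10 human members were called higher from RUES2-GLR to early RA-gastruloids, all but CDX4, against 12.0% of the genes tested called higher and 17.6% called lower. TBXT, EOMES and MSGN1 are in that count although the filter fixed their direction, and without them 6 of 7 members were called higher, with a median log2 change of 7.12 (7.32 with them) against 0.08 over the genes tested. These 7 still include MESP1, whose direction the filter largely fixed. TBXT, EOMES and MSGN1 had to fall from early to late RA-gastruloids, and the fall of MESP1 was largely fixed. Without TBXT, EOMES and MSGN1, 7 of 7 members (MESP1 included) were called lower, and with these 3 all 10. Of all genes, 13.2% were called lower and 11.8% higher, and the medians were -3.38 and -4.11 against 0.00. In mouse, 6 of the 7 tested members were called higher from EpiLCs to early gastruloids and Cdx4 lower, against 11.7% and 9.24% of genes (medians 3.40 and 0.01). The filter fixed the direction of Cdx4 in this step. The early mouse gastruloids were not made from EpiLCs. Against naive ESCs, their starting cells, 3 of 7 were called higher and 1 lower, against 16.2% and 6.81% of genes. From early to late mouse gastruloids 5 of 7 were called lower (T, Mixl1, Cdx1, Cdx4 and Nkx1-2) and Cdx2 higher, against 19.1% and 20.1% of genes, while Eomes was not called (medians -3.46 and -0.03). The human step from primed to early exceeded the mouse one, taken from EpiLCs, for 9 of 10 members, against 12.9% of the 14006 genes tested in both species called larger in human and 19.7% called smaller. MSGN1 is in that count although it entered the contrast through the human early RA-gastruloids alone, so its direction was fixed. MESP1 was the exception (adjusted p = 0.828), with at most 2 counts in each mouse library of that step. The call for TBXT (adjusted p = 0.0073) rests on 1 human primed count and was lost without RUES2-GLR replicate 1 (adjusted p = 0.129). That for EOMES (0.0201) was lost without either RUES2-GLR replicate (adjusted p = 0.167 and 0.0531) and in DESeq2 (0.0672). Those for CDX1 and CDX2 (adjusted p = 6.06e-06 and 2.7e-08) have human primed groups at 0. For the step from early to late, CDX1 was called with the smaller fall in human (16.7% of genes called higher) and TBXT, EOMES, MESP1, TBX6 and CDX2 with the larger fall or, for CDX2 and MESP1, the opposite direction (18.7% called lower). Each human step shares its early libraries with the next, as does each mouse step.

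**Figure D3:**
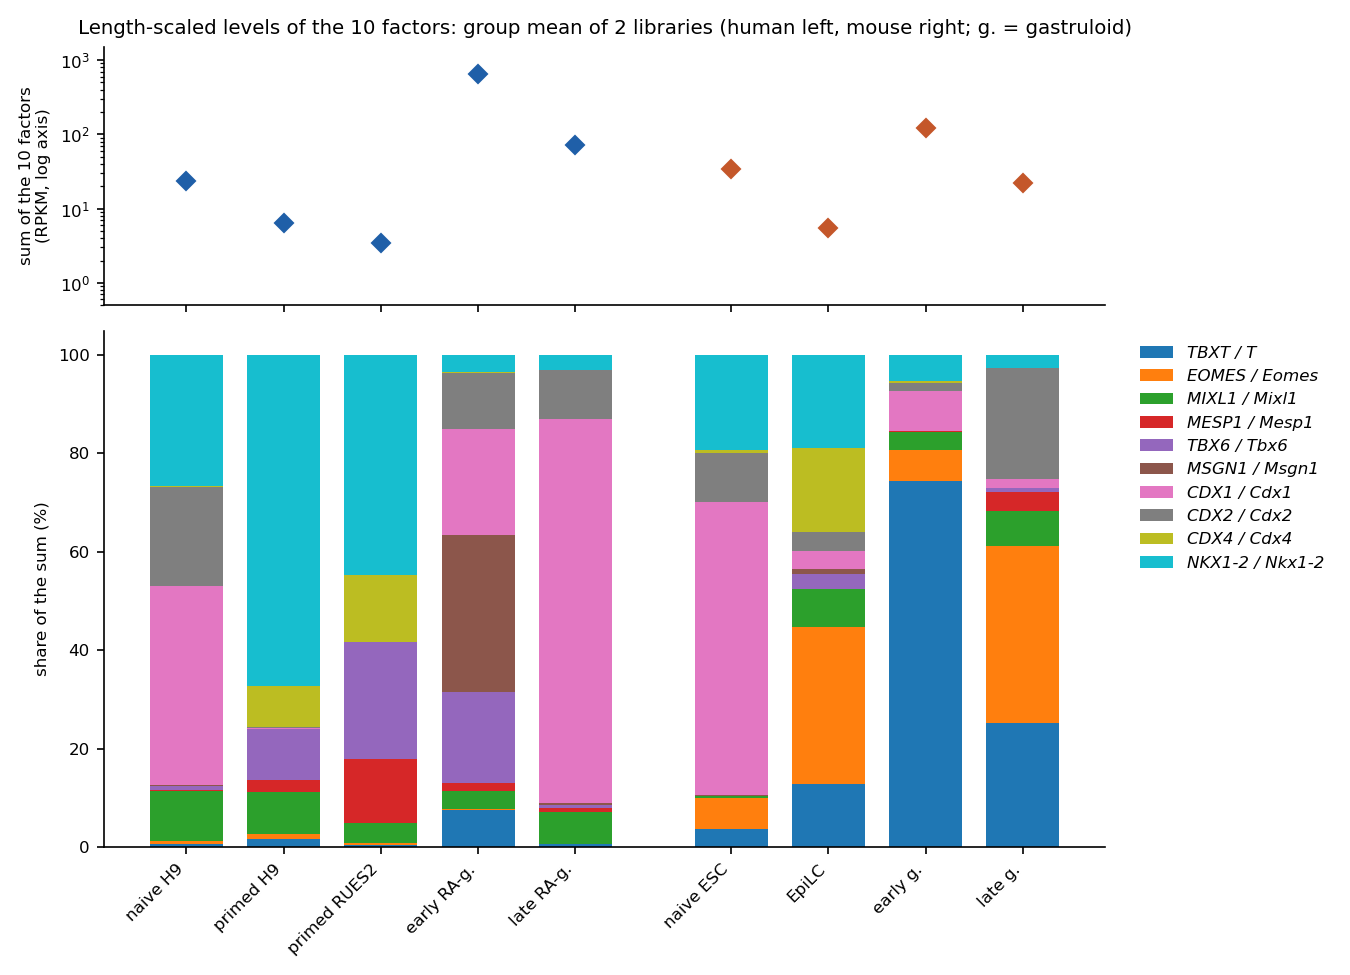
Sum of the RPKM of the 10 factors per group (top, log axis) and the share of each factor in that sum (bottom), as means of 2 libraries. The sum is 643 RPKM in human early and 124 RPKM in mouse early gastruloids, where T takes 74.3% of it.

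Per length, the early gastruloids of the 2 species were built from different members. In human early RA-gastruloids the order was MSGN1 (206 ± 6.16 RPKM, SD, n = 2), CDX1 (139 ± 1.95), TBX6 (119 ± 6.36), CDX2 (73.0 ± 1.52), TBXT (48.4 ± 1.14), MIXL1 (24.3 ± 0.915), NKX1-2 (22.5 ± 1.28), MESP1 (9.64 ± 0.603), CDX4 (0.835 ± 0.139) and EOMES (0.616 ± 0.0916). MIXL1 and NKX1-2, and CDX4 and EOMES, were closer together than the sum of their SDs. RPKM divides by all exon bases, but 37.7% of those of NKX1-2 and 14.3% of those of TBXT are shared with antisense genes. Reads there are left out, so the RPKM and shares of these 2 genes can be too low. Their places in the human orders, and the closeness of NKX1-2 to MIXL1, are therefore uncertain. In mouse early gastruloids T led (91.8 ± 0.214 RPKM), followed by Cdx1 (9.94 ± 0.425), Eomes (7.90 ± 0.183), Nkx1-2 (6.41 ± 0.203), Mixl1 (4.62 ± 0.207), Cdx2 (2.12 ± 0.131) and Cdx4 (0.485 ± 0.0105). T thus held 91.9% of the summed T, Eomes and Tbx6 level, while TBX6 held 70.9% and TBXT 28.8% of it in human. In late RA-gastruloids CDX1 led with 55.7 ± 9.60 RPKM, ahead of CDX2 (7.01 ± 0.0525), MIXL1 (4.60 ± 0.352) and NKX1-2 (2.20 ± 0.0229), and TBXT, MSGN1 and TBX6, between 0.371 and 0.432 RPKM, lay closer together than the sums of their SDs. In late mouse gastruloids Eomes (7.88 ± 0.439) led T (5.55 ± 0.511) and Cdx2 (4.95 ± 0.154), and T and Cdx2 were closer than the sum of their SDs. The order by TPM was the same as by RPKM in these 4 groups.

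Naive and primed cells were compared as well. From naive to primed H9, MIXL1, CDX1 and CDX2 were called lower (22.3% of genes) and TBX6 and CDX4 higher (25.5%). The summed counts of CDX1 and CDX2 in naive H9 stood in ratios of 312 (95% interval 106 to 1518) and 306 (104 to 1488) to those in primed H9 (adjusted p = 1.5e-19 and 2.13e-20), MIXL1 fell by 2.03 ± 0.22 (adjusted p = 1.17e-09), and TBX6 rose by 1.47 ± 0.31 (adjusted p = 8.56e-05) between levels of 0.711 and 2.03 CPM. NKX1-2 was 1.44-fold higher in naive H9, below the threshold on size. The naive H9 libraries also held 868 ± 234 CPM over the 8 trophoblast and amnion markers, against 11.4 ± 0.0972 CPM in primed H9. The largest part was CGA, which differed between the 2 libraries (334 and 599 CPM), followed by GATA2 at 184 ± 23.2 and GATA3 at 116 ± 10.4 CPM. The part of these markers in the CDX1 and CDX2 levels was not tested. The naive H9 libraries held 3550 ± 162 CPM over the 4 human naive markers, against 8.92 ± 0.807 CPM in primed H9. From primed H9 to RUES2-GLR, MIXL1 (a decrease of 2.12 on the log2 scale, SE 0.56, adjusted p = 0.0016) and NKX1-2 (1.48 lower, adjusted p = 4.18e-08) were called lower, against 12.2% of genes called lower and 17.1% called higher, and MIXL1 lost its call without RUES2-GLR replicate 1 (adjusted p = 0.247). The median of all genes lay at -0.12 in this comparison, and of all calls 58.4% were higher, against 68.7% with DESeq2's size factors and 71.2% with upper quartile scaling in edgeR.

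From naive mouse ESCs to EpiLCs, T, Cdx1, Cdx2 and Nkx1-2 were called lower (12.1% of genes) and Mixl1 and Cdx4 higher (17.7%). Cdx4 reached the filter level in EpiLCs alone, so its rise was fixed. Cdx1 fell by 6.77 ± 0.25 (101-fold, adjusted p = 5.95e-32), Cdx2 by 4.36 ± 0.38 (16.6-fold, adjusted p = 1.8e-15) and Nkx1-2 by 2.72 ± 0.18 (6.47-fold, adjusted p = 3.25e-20). T (adjusted p = 0.00103), Mixl1 (0.0419) and Cdx4 (0.000766) rested on few counts. Each of the 3 lost its call without EpiLC replicate 2 (T -0.37, adjusted p = 0.445; Mixl1 0.23; Cdx4 0.0729), T also without naive replicate 2 (0.0578) and Mixl1 also without either naive replicate (0.0748 and 0.188), and in DESeq2 Mixl1 (0.118) and Cdx4 (0.0641) were not called. The early mouse gastruloids start from these naive cells, not from EpiLCs, and against them 3 members were called higher (T by 6.12 ± 0.12, Mixl1 by 4.76 ± 0.35 and Eomes by 1.94 ± 0.13; 16.2% of genes) and Cdx1 lower (1.05 lower, SE 0.11; 6.81% of genes). The Cdx1 change lies at the threshold on size, and with at least 10 counts required in each sample compared it was -0.997 and not called. The 4 mouse naive markers summed to 2148 ± 42.0 CPM in naive ESCs, 69.8 ± 2.99 in EpiLCs and 1109 ± 13.3 in early gastruloids, a course that moves with Cdx1 and Nkx1-2, and its part in their levels was not tested.

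The late gastruloids were also set against their starting cells. From RUES2-GLR to late RA-gastruloids TBXT, MIXL1, MSGN1, CDX1 and CDX2 were called higher (17.3% of genes) and CDX4 lower (21.0%), with CDX1 at least 165-fold and CDX2 at least 41.1-fold higher. TBXT (20.7-fold by summed counts, 95% interval 3.51 to 836, adjusted p = 0.000184) lost its call without late replicate 1 (0.0509) and MSGN1 (0 counts against 16) without RUES2-GLR replicate 1 (0.152). From naive ESCs to late mouse gastruloids T (4.31-fold), Eomes (3.74-fold) and Mixl1 (9.22-fold) were called higher (25.6% of genes) and Cdx1 (55.3-fold) and Nkx1-2 (11.9-fold) lower (19.2%).

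Of 26 genes of streak and caudal signalling, 18 were called higher and 3 lower from RUES2-GLR to early RA-gastruloids (12.0% and 17.6% of all genes tested), with a median log2 change of 3.04. RSPO3, a WNT agonist, rose from 0.482 to 233 CPM and EVX1, a homeobox gene of the posterior streak, from 0 to 33.6 CPM. EVX1 reached the filter level in early RA-gastruloids only (at most 0.305 CPM in any other library). Its rise and later fall were therefore fixed, and it is included in the counts of this list. GDF3, a NODAL-related ligand (40.8 to 1.91 CPM), and CYP26A1, an RA-degrading enzyme (238 to 12.1 CPM), fell. Into late RA-gastruloids, 3 were called higher and 18 lower (11.8% and 13.2% of all genes), with a median of -3.37, or -3.20 with GDF3 at its bound. SOX2 (92.5 to 321 CPM) and SOX3 (17.3 to 49.8 CPM), factors of neural progenitors, rose, while WNT8A fell from 646 to 1.14 CPM and FGF4 from 105 to 0.0509 CPM. In mouse, 25 of the 26 passed the filter, with 16 called higher and 2 lower from EpiLCs to early gastruloids (11.7% and 9.24% of all genes) and a median of 2.01. Sp5, a WNT target, went from 0.0328 to 58.4 CPM and Evx1 from 0.0657 to 17.0 CPM, whereas Sox3 (64.7 to 14.1 CPM) and Fgf4 (294 to 142 CPM) fell. From early to late mouse gastruloids 6 were called higher, led by Cyp26a1 (0.167 to 28.5 CPM) and Wnt5a (1.70 to 77.3 CPM), and 13 lower, led by Lefty2 (326 to 9.17 CPM) and Wnt8a (62.7 to 2.91 CPM), with a median of -1.46, against 20.1% and 19.1% of all genes called higher and lower. Cyp26a1 averaged below 1 CPM in every other mouse group, so the filter fixed its rise. All-gene medians for these 4 steps are those given with the members.

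Of 17 presomitic and somite genes, the tissue to which TBX6 and MSGN1 belong, 10 were called higher and none lower from RUES2-GLR to early RA-gastruloids, against 12.0% and 17.6% of all genes (median 2.86, or 2.62 with TBX18 at its bound), with FOXC1 going from 0.482 to 117 CPM and FOXC2 from 0.0818 to 32.0 CPM. Into late RA-gastruloids, 8 were called higher, among them MEOX1 (0.146 to 82.2 CPM) and RIPPLY1 (0 to 9.68 CPM), and 5 lower, among them HES7, an oscillating gene of the segmentation clock (123 to 3.82 CPM), and RIPPLY2 (0.834 to 0.0509 CPM), with a median of 0.65, against 11.8% of all genes called higher and 13.2% lower. By their levels, RIPPLY2 passed the filter through early RA-gastruloids alone, and MEOX1, MEOX2, UNCX and RIPPLY1 through late ones alone. Where these genes are in the counts, their direction was fixed. In mouse 14 passed the filter. From EpiLCs to early gastruloids 3 were called higher, among them Ripply1 (0.296 to 4.53 CPM) and Aldh1a2, an RA-synthesising enzyme (0.763 to 4.16 CPM), and 3 lower, among them Lfng (6.21 to 1.78 CPM) and the Notch ligand Dll1 (21.4 to 8.92 CPM), with a median of -0.15, against 11.7% of all genes called higher and 9.24% lower. Into late mouse gastruloids, 7 were called higher, led by Meox1 (0.0932 to 137 CPM) and Foxc2 (0.236 to 73.7 CPM), and 3 lower, led by Ripply1 (4.53 to 0.546 CPM) and Dll3 (18.1 to 3.76 CPM), with a median of 1.48, against 20.1% of all genes called higher and 19.1% lower. Meox1, Meox2, Foxc1, Foxc2 and Pax3 averaged below 1 CPM in every other mouse group, so where called their rise was largely fixed by the filter. In the same late mouse libraries Tbx6 and Msgn1 held 6 and 0 summed counts.

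**Figure D4:**
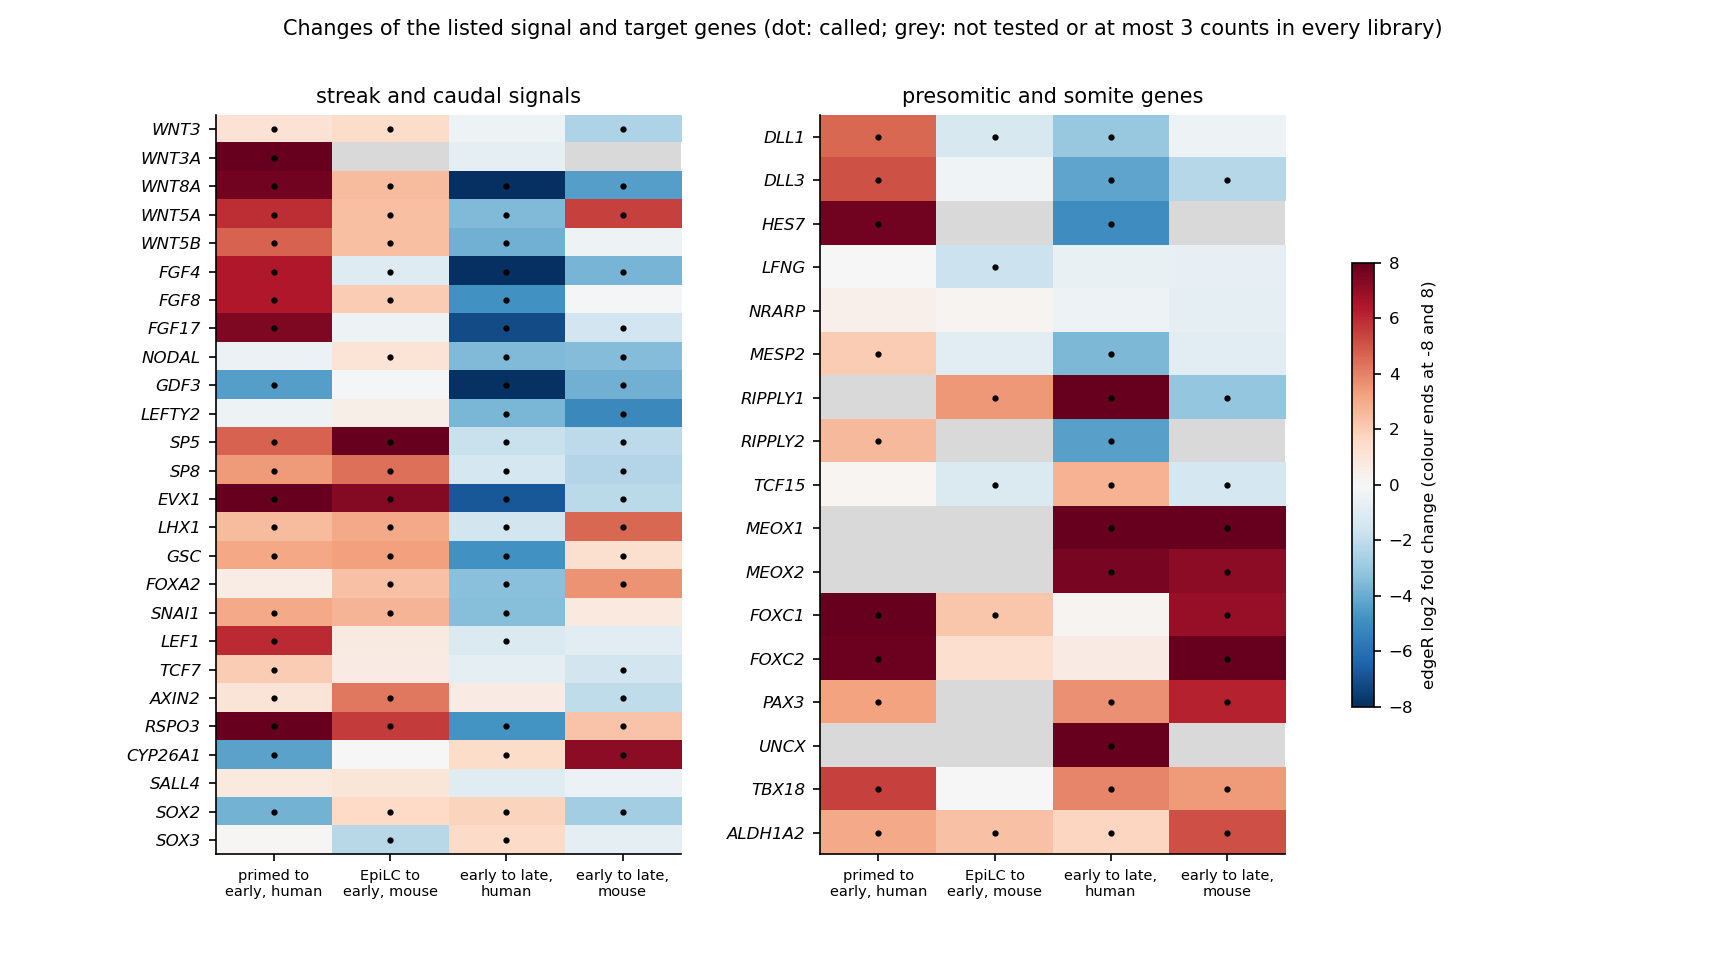
edgeR log2 fold changes of the 26 streak and caudal signalling genes (left) and the 17 presomitic and somite genes (right) in the 4 gastruloid steps, with a dot on called genes. Colours end at -8 and 8, and cells of genes with a group at 0 counts show a fitted value that depends on the prior. The left columns of the first panel hold 18 (human) and 16 (mouse) genes called higher.

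Genes whose log2 CPM ran most like a member's were listed for 4 members in each species, with Pearson's r across the 10 human or 8 mouse libraries, which fall into 5 and 4 groups. TBXT ran most like KDM4B (r = 0.99), CCDC85A (0.983) and TTC29 (0.981), TBX6 like TNIP1 (0.996), PFKFB3 (0.983) and EDAR (0.98), CDX2 like SERTAD2 (0.989), LPIN2 (0.989) and PLXNA2 (0.988), and EOMES like ENO1 (0.971), IER5 (0.97) and the member NKX1-2 (0.969). In mouse, T ran most like Sp8 (0.995), D5Ertd579e (0.991) and Gm49654 (0.991), Eomes like Tgfbr3 (0.998), Celf2 (0.996) and Smap2 (0.991), and Cdx2 like Rab12 (0.993), Osbpl11 (0.989) and Cited1 (0.986), while Tbx6 did not pass the filter. These values describe few libraries in few groups, and say nothing of shared control.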

How the data were processed

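Poly(A) RNA libraries were sequenced on an Illumina instrument. After trimming (Trimmomatic 0.39) and STAR alignment (human GRCh38, mouse GRCm39), the authors ran featureCounts at its defaults (unstranded, reads shared between genes left out), and deposited raw counts for each species. The annotation release is not given in the sources used here. Members and gene lists were chosen with earlier results of these data known. Within each species, genes were filtered with filterByExpr (about 0.737 CPM in human and 1.02 CPM in mouse, in at least 2 libraries), scaled by TMM and tested in 1 quasi-likelihood fit over all groups with edgeR 4.0.16 (R 4.3.3), with Benjamini-Hochberg adjustment. Differences between species were tested as an interaction contrast over 14006 genes matched by symbol. The p-values measure the spread between these samples. In each list and step, the 2 genes with the largest change in each direction were named. RPKM used the deposited gene lengths. Promoters were read from the genomes with GENCODE v44 and M39. Scripts were tested on simulated data. Alternatives were DESeq2 1.42.0, other scalings and filters, a replicate block and leaving out each library.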

Additional observations from a re-analysis of the deposited data

Results flagged for a closer look

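The change from primed cells to early gastruloids differed between human and mouse for 9 members by the interaction contrast (edgeR quasi-likelihood test, adjusted over all genes tested), each with the larger value in human. The mouse primed cells in this contrast are EpiLCs, from which the early gastruloids were not made. The adjusted p was 2.7e-08 for CDX2, 1.08e-07 for TBX6, 9.75e-07 for MIXL1, 6.06e-06 for CDX1, 0.000222 for MSGN1, 0.000854 for NKX1-2, 0.0073 for TBXT, 0.016 for CDX4 and 0.0201 for EOMES. Those for CDX1, CDX2, MSGN1, TBXT and EOMES involve a human primed group with 0 or 1 count, so their sizes are not given. Mouse Tbx6 and Msgn1 did not pass the filter within mouse and entered this contrast through the human libraries. For MSGN1 these were the early RA-gastruloids alone, so a larger rise in human was fixed. Of the 9 calls, 5 were lost when 1 library was left out: TBX6 (adjusted p = 0.908) and MSGN1 (adjusted p = 1) without EpiLC replicate 2, TBXT (0.129) without RUES2-GLR replicate 1, EOMES without RUES2-GLR replicate 1 (0.167) or 2 (0.0531), and CDX4 without RUES2-GLR replicate 1 (0.26), human early replicate 1 (0.0612) or EpiLC replicate 2 (0.15).

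The change from early to late gastruloids differed for 6 members, with an adjusted p of 7.37e-19 for CDX2, 4.13e-11 for CDX1, 1.16e-08 for EOMES, 1.17e-08 for MESP1, 1.32e-08 for TBXT and 6.73e-07 for TBX6. CDX1 fell less in human, and the other 5 had the lower value in human. Mouse Mesp1 and Tbx6 did not pass the filter within mouse. Species, line, protocol and hours in culture cannot be told apart in these differences.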

How the results depend on the processing

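With pairs of libraries and 3681739 counts in the shallowest, changes of members at a few counts are not resolved. The alternatives were run on the 75 called member values, and none of these changed direction. Over all genes, the calls from naive to primed H9 turned from 4661 higher and 4086 lower to 4291 and 4515 with DESeq2's size factors, and the median from H9 to RUES2-GLR from -0.12 to 0.04 in DESeq2. Requiring at least 10 counts in each sample compared drops members with a low group by construction (Cdx1 from naive to early stayed in the test and lost its call at -0.997), and left 2 members called from naive to primed H9, 1 from H9 to RUES2-GLR, 1 from RUES2-GLR to early, 4 from early to late and 0 from RUES2-GLR to late in human, and 2 from naive to EpiLC, 4 from EpiLC to early, 2 from naive to early, 3 from early to late and 2 from naive to late in mouse. Leaving out each library gave 5 to 6, 1 to 2, 9 to 9, 10 to 10 and 5 to 7 called members for the human comparisons in that order, 3 to 6, 6 to 7, 4 to 4, 6 to 7 and 5 to 6 for the mouse ones, and 6 to 9 and 6 to 6 for the species differences of the first and the second step. Same-numbered libraries did not deviate together (correlations from -0.112 to 0.068 in human and -0.048 to 0.008 in mouse). No shared deviation by replicate number was thus seen, which cannot exclude that samples were paired when collected. With the replicate block 6 instead of 7 members were called from EpiLC to early, Cdx4 being lost, and the other counts were 5, 2, 9, 10 and 6 in human, 6, 4, 6 and 5 in mouse, and 9 and 6 for the species differences. Over all genes, the calls numbered 8747, 5357, 5413, 4564 and 7012 for the human comparisons in that order, 4465, 3143, 3451, 5884 and 6718 for the mouse ones and 4570 and 4954 for the species differences. By the adjusted p alone, with no limit on size, they numbered 13777, 10710, 10218, 9519 and 11631, 9900, 9410, 9445, 11415 and 11773, and 7797 and 8302, and with at least 10 counts in each sample compared 5006, 3173, 3190, 2479 and 3655 in human and 2337, 1961, 1781, 3671 and 3667 in mouse, where fewer genes were tested.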
